A study of Mus musculus with 16 samples.

Results

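The genes described here are 10 transcription factors that set and maintain the identity of pancreatic β-cells: Pdx1, Mafa, Nkx6-1, Nkx2-2, Neurod1, Pax6, Isl1, Foxa2, Insm1 and Rfx6. They were taken as a named list from a table of 23329 genes. The rule names the genes and sets no threshold on a measured value, but the list was drawn up with earlier results of these data known. All 10 were in the table, and all 10 were among the 10820 genes that passed a filter on low counts. Their human orthologs were read in single cells of islet donors without diabetes.

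The mouse RNA came from BetaTC6, an established insulinoma-derived β-cell line on a C57BL/6 background, obtained from ATCC. Polyadenylated RNA was sequenced from 16 libraries in 4 groups of 4: wild-type cells given vehicle (DMSO), wild-type cells given ivermectin, cells labelled P2ry1 knockout given vehicle, and cells labelled P2ry1 knockout given ivermectin. Every group was grown for 3 days, held in buffer without glucose, and then exposed to 20 mM glucose for 30 min, so no group shows the factors at low glucose. The P2ry1 gene encodes a cell-surface receptor for extracellular nucleotides; ivermectin is used against parasites. The comparisons ask how the drug and the label of receptor loss bear on mRNA levels. How the labelled knockout was made, and whether it is a single clone, is not given in the sources used here. The same holds for whether the 4 libraries of a group came from separate cultures, so the p-values measure only the spread between these libraries.

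Islet endocrine cells are specified by a cascade of transcription factors that stay active in the adult cell. In the mature β-cell, Pdx1, Nkx6-1 and Mafa bind the insulin genes or the genes of glucose sensing and secretion, and loss of Pdx1 or Nkx6-1 weakens β-cell identity. Neurod1, Nkx2-2, Pax6, Isl1, Insm1 and Rfx6 are shared with other endocrine cell types, and Foxa2 opens chromatin in endoderm-derived tissues, the pancreas among them.

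Library totals ranged from 893088 to 2013242 counts, and the 4 lowest were those of wild-type vehicle. P2ry1 mRNA did not separate the genotype labels. It lay between 85.5 and 105.6 CPM (counts relative to the library total, with TMM factors) in wild-type libraries. In libraries labelled knockout it lay between 72.8 and 94.8 CPM. These values do not check the labels, which are used as given. The 5 β-cell markers Ins1, Ins2, Iapp, Slc2a2 and G6pc2 were read in every group, with Ins2 at 20444 CPM ± 1555 (SD, n = 4) in wild-type vehicle. Of 5 acinar markers, 4 were at 0 in every library and Ctrb1 reached at most 0.632 CPM. Transcripts of liver were present: the summed level of 10 hepatocyte markers, all 10 read in each group, was 592 to 1641 CPM in wild-type vehicle, 111 to 310 in wild-type ivermectin, 42.5 to 102 in labelled-knockout vehicle and 64.6 to 253 in labelled-knockout ivermectin (scaled by library totals). Single libraries held between 41 and 828 counts of a factor.

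Levels between genes were compared as TPM, which corrects for transcript length and sums to the same total in each library. In wild-type vehicle Mafa was highest at 553 TPM ± 35.8, followed by Pdx1 at 440 ± 21.7 (SD, n = 4 each). Pax6 had 233 ± 12.2 TPM and Nkx6-1 had 223 ± 11.1, with overlapping libraries (220.7 to 250.1 and 212.5 to 235.0 TPM). Isl1 followed at 210 ± 2.58 TPM, Insm1 at 169 ± 3.85, Neurod1 at 142 ± 8.05 and Nkx2-2 at 88.5 ± 4.94. Foxa2 and Rfx6 were lowest, at 48.0 ± 11.1 and 35.6 ± 3.24 TPM, and their libraries overlapped (33.5 to 57.2 and 33.3 to 40.4 TPM). No other neighbours in this order overlapped, though the lowest Nkx6-1 library (212.54 TPM) and the highest Isl1 library (212.53 TPM) nearly touched. Mafa was above 98.9% of the genes in the table and Rfx6 above 82.9%. The order of the means was the same in all 4 groups.

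**Figure D1:**
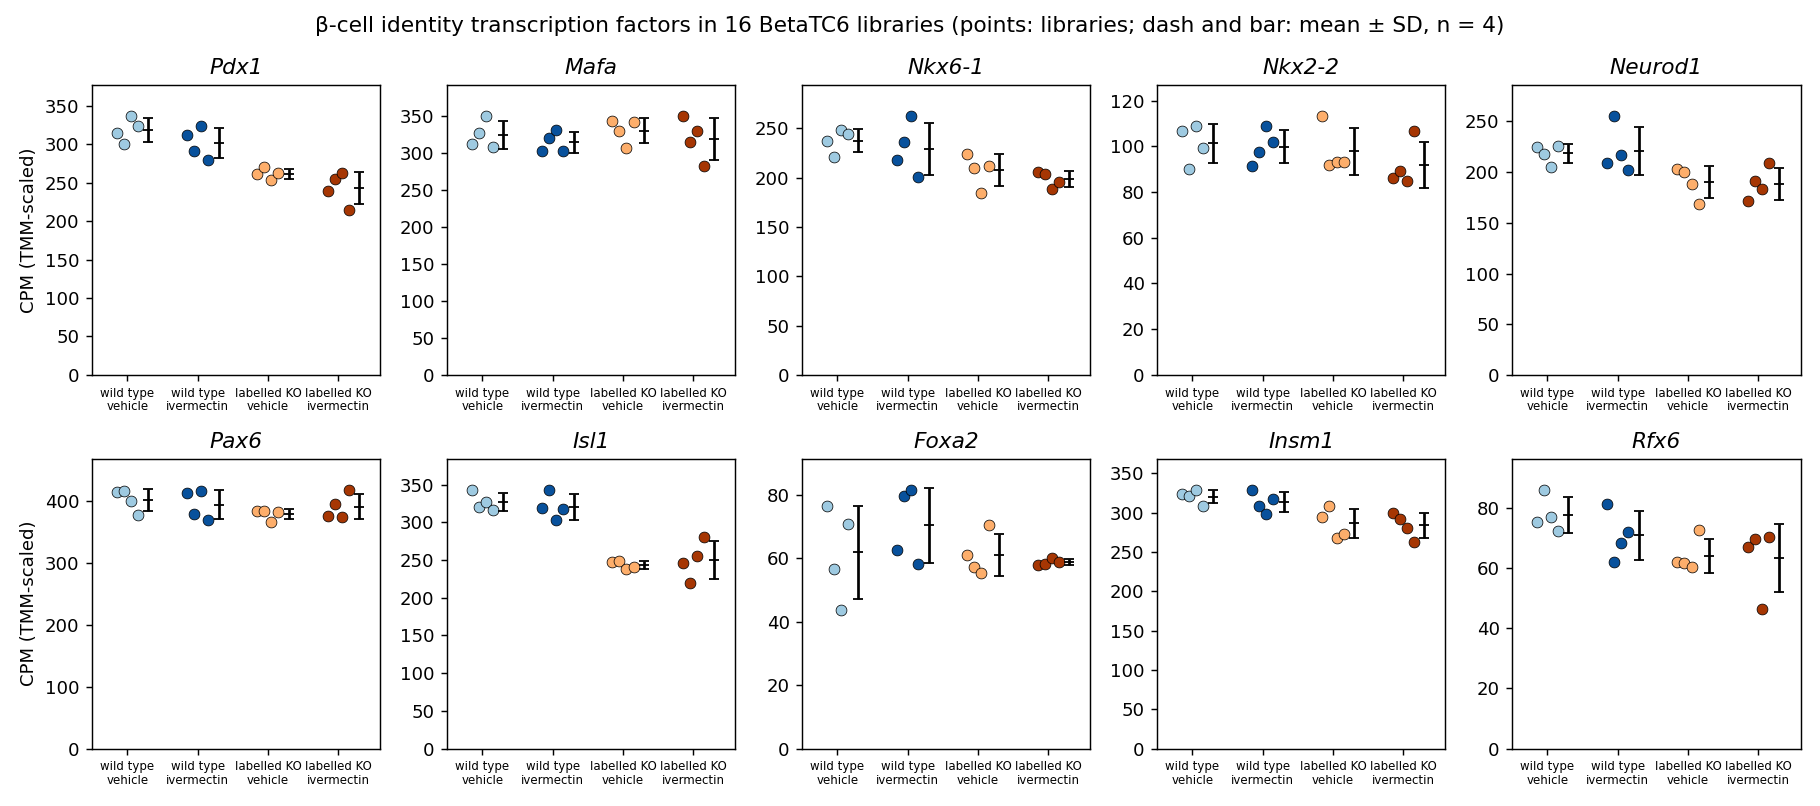
Level of each factor in CPM (vertical axis, from 0, a separate scale for each gene) in the 16 libraries, by group; points are libraries and the dash with its bar is the mean ± SD (n = 4). The libraries labelled knockout lie below all wild-type libraries of the same treatment for Pdx1 and Isl1, while those of Mafa overlap.

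The first pair of comparisons asks what ivermectin does to the factors within 30 min. None of the 10 passed the test in either line (edgeR's quasi-likelihood test with Benjamini-Hochberg adjustment over all tested genes, threshold 0.05), and none had an unadjusted p under 0.05. DESeq2 also called 0 in each line. Over all genes tested, 0.601% passed in wild type (65 genes, and 100 without wild-type ivermectin replicate 1) and 0% in the line labelled knockout. In wild type the log2 differences ran from -0.13 for Rfx6 to 0.19 for Foxa2, with a median of -0.03. In the line labelled knockout they ran from -0.11 for Pdx1 to 0.04 for Pax6, with a median of -0.03. The values of all 10 factors overlapped between ivermectin and vehicle libraries in both lines, where 3.35% of all genes in wild type and 3.69% in the line labelled knockout did not overlap. Averaged over both lines, a contrast added after the data were seen, 0 of the 10 passed against 0.0555% of all genes.

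The precision of these differences varied with the level of the gene. For Pax6 the 95% interval of the log2 difference was -0.15 to 0.10 in wild type and -0.07 to 0.16 in the line labelled knockout. For Pdx1 it was -0.22 to 0.06 and -0.24 to 0.03. For Mafa, which activates the insulin genes in mature β-cells, it was -0.18 to 0.10 and -0.18 to 0.08. Foxa2 and Rfx6, which had the fewest counts, had the widest intervals, -0.09 to 0.47 for Foxa2 and -0.38 to 0.12 for Rfx6 in wild type. The interaction, which asks whether ivermectin acted differently in the 2 lines, called 0 of the 10 against 0.222% of all genes (24 genes, with 48 without wild-type ivermectin replicate 1, 14 without replicate 3 and 8 without labelled-knockout ivermectin replicate 1). Its log2 values ran from -0.24 for Foxa2 to 0.12 for Rfx6, 0 had an unadjusted p under 0.05, and DESeq2 called 0.

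The second pair of comparisons sets the line labelled knockout against wild type in the same treatment. In vehicle, Pdx1 and Isl1 were lower, 2 of the 10, where 20.7% of all genes tested passed in either direction and 10.8% passed as lower. In ivermectin, Pdx1, Isl1, Nkx6-1 and Neurod1 were lower, 4 of the 10, against 27.8% of all genes in either direction and 13.9% lower. No factor was called higher in either treatment. The vehicle and ivermectin comparisons share no library. The median log2 difference of the 10 was -0.18 in each, beside -0.0007 and -0.0004 for all genes tested, and 6 of the 10 had an unadjusted p under 0.05 in each, where 32.9% and 38.2% of all genes did.

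Pdx1 is the homeodomain factor that specifies the pancreas and later activates the insulin genes in β-cells. Its 4 wild-type vehicle libraries had 314.8, 300.3, 336.7 and 323.3 CPM, and the 4 labelled-knockout vehicle libraries 260.8, 269.9, 253.4 and 262.2. In ivermectin the wild-type libraries had 312.4, 291.6, 323.5 and 279.4 CPM, and those labelled knockout 239.1, 255.4, 262.7 and 214.8. All libraries labelled knockout were thus below all wild-type libraries of their treatment. Pdx1 fell by 17.9% in vehicle (95% interval -25.4% to -9.66%; log2 difference -0.28, SE 0.0681, edgeR adjusted p = 0.00211). In ivermectin the log2 difference was -0.31 (SE 0.0659, edgeR adjusted p = 4.25e-04). In vehicle the call was lost when all libraries were thinned to equal totals (-0.21, edgeR adjusted p = 0.0840) and with the level of Alb, a hepatocyte marker, as a covariate (-0.27, edgeR adjusted p = 0.346).

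Isl1 is a LIM-homeodomain factor of all islet endocrine cell types and cooperates with Neurod1 and Pdx1 at islet genes. Its wild-type vehicle libraries had 342.9, 320.8, 327.1 and 316.8 CPM, against 247.4, 248.3, 238.0 and 241.0 in labelled-knockout vehicle. In ivermectin the values were 318.4, 343.1, 303.0 and 316.9 CPM in wild type and 245.5, 219.4, 255.5 and 280.1 in the libraries labelled knockout. The groups did not overlap in either treatment, and the lowest wild-type library was at 303.0 CPM. Isl1 had the largest difference of the 10: it fell by 25.4% in vehicle (95% interval -32.2% to -17.9%; log2 difference -0.42, SE 0.0682, edgeR adjusted p = 1.36e-05). That call was lost with the Alb level as a covariate, at a log2 difference of -0.42 (edgeR adjusted p = 0.1004). In ivermectin the log2 difference was -0.36 (SE 0.0653, edgeR adjusted p = 6.46e-05).

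Nkx6-1 is a homeodomain repressor that holds β-cells apart from other endocrine fates. Its values were 237.2, 221.1, 248.0 and 244.3 CPM in wild-type vehicle and 223.6, 210.2, 184.6 and 211.3 in labelled-knockout vehicle. In ivermectin they were 217.9, 236.2, 262.5 and 200.6 CPM in wild type and 205.9, 203.9, 188.8 and 195.4 in the libraries labelled knockout. The groups overlapped in both treatments, by 1 library of each line in vehicle. The log2 difference was -0.20 in vehicle (SE 0.0783, edgeR adjusted p = 0.0691) and -0.21 in ivermectin (SE 0.0748, edgeR adjusted p = 0.0348).

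Neurod1 is a basic helix-loop-helix factor of endocrine cells that binds the insulin promoter. It had 224.9, 218.1, 205.2 and 225.7 CPM in wild-type vehicle, and 203.3, 200.6, 188.1 and 168.4 in labelled-knockout vehicle, with no overlap. In ivermectin it had 208.9, 255.4, 216.8 and 202.1 CPM in wild type and 171.5, 190.8, 182.9 and 208.9 in the libraries labelled knockout, where the ranges overlapped. The log2 difference was -0.20 in vehicle (SE 0.0823, edgeR adjusted p = 0.0775) and -0.23 in ivermectin (SE 0.0777, edgeR adjusted p = 0.0220).

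The ivermectin calls of Nkx6-1 and Neurod1 were lost with DESeq2 at nearly the same log2 differences, -0.21 and -0.23 (adjusted p = 0.0797 and 0.0562), and each rested on several single libraries. The Nkx6-1 call was lost without wild-type ivermectin replicate 2 (edgeR adjusted p = 0.0872) or 3 (0.203), or labelled-knockout ivermectin replicate 3 (0.101) or 4 (0.0756). The Neurod1 call was lost without wild-type ivermectin replicate 2 (edgeR adjusted p = 0.161), or labelled-knockout ivermectin replicate 1 (0.0926) or 3 (0.0574), and when the libraries were thinned (-0.24, adjusted p = 0.134). Pdx1 and Isl1 kept their calls in both treatments whichever of the 16 libraries was left out. Counts of factors without overlap were 3 of 10 in vehicle (Pdx1, Isl1 and Neurod1), where 22.1% of all genes did not overlap and 11.4% were lower without overlap, and 2 of 10 in ivermectin (Pdx1 and Isl1), where 25.3% did not overlap and 12.7% were lower.

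Mafa differed from the others in sign. Its wild-type vehicle libraries had 311.4, 326.7, 349.5 and 307.5 CPM and the labelled-knockout vehicle libraries 342.1, 329.0, 306.8 and 341.7, which overlap. In ivermectin the values were 302.9, 319.6, 330.8 and 302.4 CPM in wild type and 349.0, 314.8, 328.7 and 281.4 in the libraries labelled knockout. The log2 difference was 0.03 in vehicle (95% interval -0.11 to 0.16, edgeR adjusted p = 0.825) and 0.02 in ivermectin (-0.11 to 0.15, edgeR adjusted p = 0.831). The ivermectin value turned negative, -0.03, without labelled-knockout ivermectin replicate 1, and whether Mafa differed from Pdx1 in its response was not tested.

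The remaining factors did not pass the test in either treatment. Insm1, a zinc-finger factor of neuroendocrine cells, had 308 to 329 CPM in wild-type vehicle and 268 to 309 in labelled-knockout vehicle, with log2 differences of -0.16 in vehicle and -0.14 in ivermectin (edgeR adjusted p = 0.0703 and 0.0840). Rfx6, a winged-helix factor needed to form most endocrine cells, had 72.5 to 86.1 CPM in wild-type vehicle and 60.4 to 72.6 in labelled-knockout vehicle. Its log2 differences were -0.28 and -0.16 (edgeR adjusted p = 0.107 and 0.319). Foxa2, a forkhead factor that opens chromatin, had a value near 0 in vehicle, -0.02, and -0.27 in ivermectin (edgeR adjusted p = 0.925 and 0.104). Its vehicle value turned positive under several alternatives, and its ivermectin value passed without wild-type ivermectin replicate 4 (adjusted p = 0.0450).

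Pax6, which drives hormone genes in all islet endocrine cells, and Nkx2-2, which represses other islet fates in β-cells, had the smallest differences after Mafa when both treatments were weighed. The log2 difference of Pax6 was -0.08 in vehicle (95% interval -0.20 to 0.04) and -0.01 in ivermectin (-0.13 to 0.10). For Nkx2-2 it was -0.05 (-0.25 to 0.15) and -0.12 (-0.31 to 0.07). Pax6 means stood between 379 and 402 CPM in the 4 groups, and Nkx2-2 means between 91.8 and 101 CPM. The counting of reads by strand is not given in the sources used here, so reads of Pax6 and Nkx2-2 and of the antisense genes at those loci cannot be told apart.

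When the 2 treatments were averaged in the same fit, a contrast added after the data were seen, 6 of the 10 passed as lower: Pdx1, Isl1, Nkx6-1, Neurod1, Insm1 and Rfx6. Over all genes 39.9% passed in either direction and 20.1% passed as lower in that contrast. The log2 differences were -0.39 for Isl1, -0.30 for Pdx1, -0.22 for Neurod1, -0.22 for Rfx6, -0.20 for Nkx6-1 and -0.15 for Insm1. The edgeR adjusted p ranged from 2.44e-08 for Isl1 to 0.0366 for Rfx6. Foxa2, Nkx2-2, Pax6 and Mafa did not pass, with log2 values of -0.14, -0.08, -0.05 and 0.02.

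**Figure D2:**
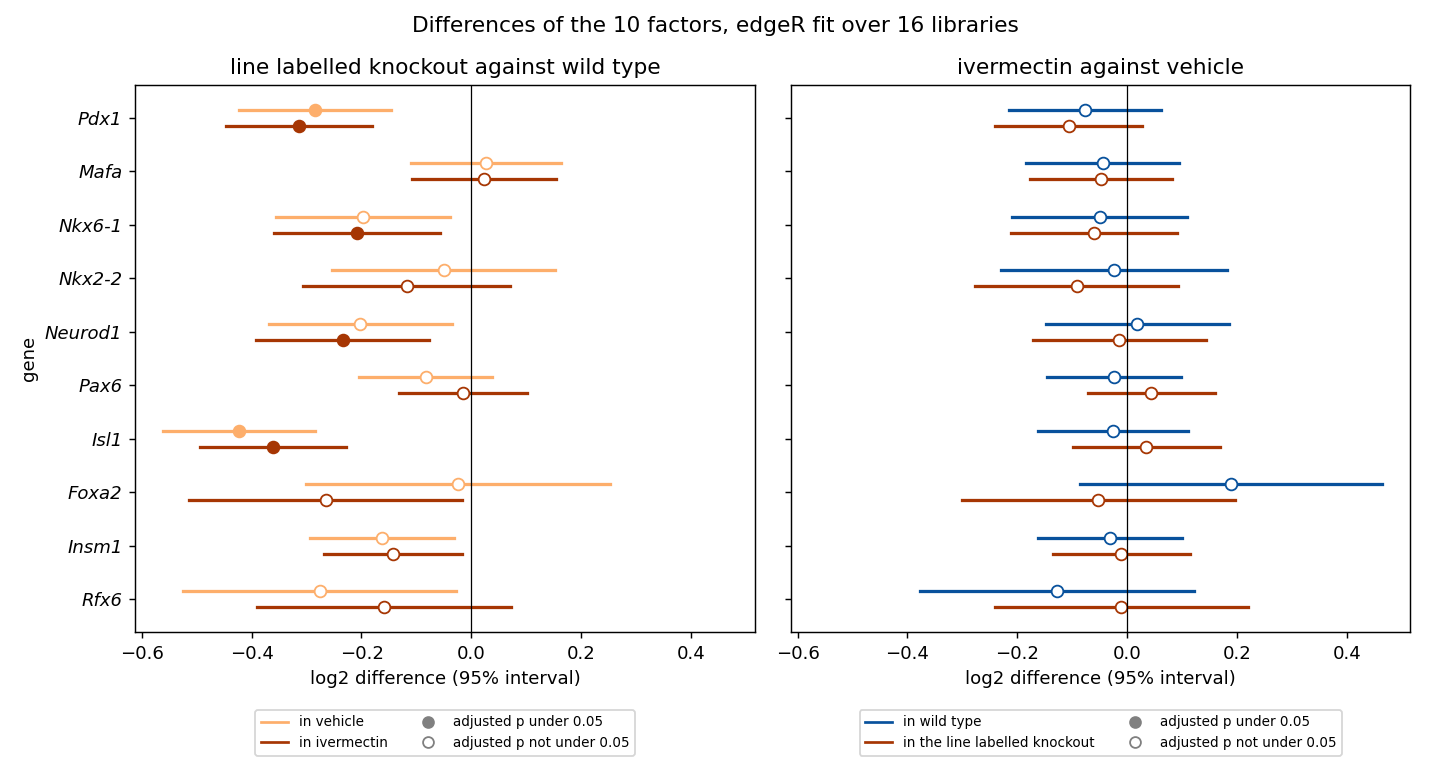
Log2 differences of the 10 factors (horizontal axis) with 95% intervals, on the left for the line labelled knockout against wild type and on the right for ivermectin against vehicle; filled points have an adjusted p under 0.05. On the left Isl1 reaches -0.42 and Mafa lies at 0.03 and 0.02, and on the right every interval spans 0.

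Transcripts of other cell types differed between the groups. The hepatocyte marker Alb had 328 to 923 CPM in wild-type vehicle and 17.1 to 52.3 in labelled-knockout vehicle. In ivermectin it had 57.7 to 172 and 28.0 to 144 CPM, which overlap, and was not called between the lines (log2 difference -0.56, edgeR adjusted p = 0.256). Alb also fell with ivermectin in wild type (-2.48, edgeR adjusted p = 1.32e-06), and its interaction was called (3.34, edgeR adjusted p = 5.01e-04). With the Alb level as a covariate, 0 of the 10 factors passed in vehicle, and the same 4 passed in ivermectin. In that fit 3.66% of all genes passed in vehicle and 25.9% in ivermectin. The summed level of the 3 delta-cell markers Sst, Hhex and Rbp4 was 269 to 334 CPM in wild-type libraries and 66.3 to 90.8 in libraries labelled knockout, and all 3 were read in each group. Most of that difference was in Sst, the somatostatin gene, which averaged 219 CPM in wild-type vehicle and 15.3 in labelled-knockout vehicle, and 229 and 18.4 CPM in ivermectin. Rbp4 averaged 83.8 and 61.3 CPM in vehicle and 62.1 and 61.7 in ivermectin. Hhex averaged 1.321 CPM or less in every group, under the level of 3 counts, so it shows no difference either way. Of the alpha-cell markers, the glucagon gene Gcg averaged 299 CPM in wild-type vehicle and 214 in labelled-knockout vehicle, and Ttr averaged 603 and 840 CPM; in ivermectin Gcg averaged 287 and 219 CPM and Ttr 606 and 862. The summed level of 5 alpha-cell markers, all read in each group, was 836 to 986 CPM in wild-type libraries and 991 to 1153 in libraries labelled knockout. That of 4 ductal markers was 11.3 to 20.4 CPM in wild-type libraries and 3.40 to 8.89 in those labelled knockout, with Krt19 at 0 in all 16. Spp1, which a ductal cell shares with other cell types, held most of that difference. It averaged 11.4 and 3.19 CPM in vehicle and 12.8 and 3.68 in ivermectin. Krt7 averaged 3.26 and 3.51 CPM in vehicle and 2.57 and 2.30 in ivermectin. Cftr averaged 0.317 CPM or less in every group, under the level of 3 counts. The part of these transcripts in the differences of Isl1, Pdx1 and the other factors was not tested. In such bulk libraries, fewer cells of a type and less RNA per cell cannot be told apart.

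The 250 bases upstream of the annotated start sites are shown for the 4 factors that passed the test in at least 1 treatment. The sequences are from RefSeq on build GRCm38.p6, 5′ to 3′ on the gene's strand, and 8 of the 10 factors matched an entry; Mafa and Insm1 were not matched. Capitals mark the E-box CANNTG, the motif of basic helix-loop-helix factors such as Neurod1. Pdx1 lies on the plus strand at chr5:147269847-147270096, Isl1 on the minus strand at chr13:116309689-116309938, Nkx6-1 on the minus strand at chr5:101664712-101664961 and Neurod1 on the minus strand at chr2:79456637-79456886.
Pdx1: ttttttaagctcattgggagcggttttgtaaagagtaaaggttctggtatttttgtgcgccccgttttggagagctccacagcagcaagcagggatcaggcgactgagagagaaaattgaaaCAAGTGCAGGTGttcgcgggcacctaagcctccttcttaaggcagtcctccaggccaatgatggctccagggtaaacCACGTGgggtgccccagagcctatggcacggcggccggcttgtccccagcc
Isl1: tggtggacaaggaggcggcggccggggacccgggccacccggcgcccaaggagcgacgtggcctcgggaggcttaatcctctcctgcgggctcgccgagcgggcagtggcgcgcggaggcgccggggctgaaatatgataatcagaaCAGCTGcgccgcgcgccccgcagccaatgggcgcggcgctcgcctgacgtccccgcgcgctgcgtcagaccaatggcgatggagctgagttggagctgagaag
Nkx6-1: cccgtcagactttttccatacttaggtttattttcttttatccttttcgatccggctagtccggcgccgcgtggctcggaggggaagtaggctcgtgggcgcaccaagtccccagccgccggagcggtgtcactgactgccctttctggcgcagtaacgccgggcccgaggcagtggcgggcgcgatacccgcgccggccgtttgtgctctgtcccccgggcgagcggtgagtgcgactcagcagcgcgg
Neurod1: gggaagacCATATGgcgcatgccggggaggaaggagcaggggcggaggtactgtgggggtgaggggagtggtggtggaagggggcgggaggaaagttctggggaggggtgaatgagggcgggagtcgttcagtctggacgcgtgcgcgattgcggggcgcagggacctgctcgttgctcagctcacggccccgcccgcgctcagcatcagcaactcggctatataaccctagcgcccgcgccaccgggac

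The Pdx1 window held 3 E-boxes, 2 of them side by side, Isl1 and Neurod1 held 1 each and Nkx6-1 held 0; 66.2% of 32841 mouse promoter windows of the same length hold at least 1. The motif CANNTG reads the same on both strands. The homeodomain core TAAT, searched on both strands, occurred 2 times in Isl1 and 0 times in the others, and 54.9% of all windows hold it. The GC box GGGCGG, also searched on both strands, occurred 4 times in Neurod1 and 0 times in the other 3, against 32.7% of all windows with at least 1. None of the 4 held TATAAA on either strand, which 12.4% of windows hold. The GC content was 71.2% for Isl1, 67.6% for Neurod1, 65.2% for Nkx6-1 and 54.8% for Pdx1, beside a median of 52.4% over all windows, and the Isl1 window held 33 CpG sites beside a median of 6. These matches are a description of the letters only.

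By likeness over the 16 libraries, the genes nearest to Isl1 in log2 CPM were Gad2 (Pearson r = 0.965), Igfbp4 (0.956) and Meg3 (0.949). Nearest to Pdx1 were Plekha2 (r = 0.935), Sox12 (0.931) and Moxd1 (0.919). Nearest to Neurod1 were Cblb (r = 0.901), Lrrn3 (0.861) and Arl4c (0.843), and nearest to Nkx6-1 were Kbtbd2 (0.881), Nhsl2 (0.868) and Tmpo (0.858). The points share 2 lines that differ in many genes, so these coefficients are descriptive; Meg3, a maternally expressed noncoding RNA, itself differed by -3.07 on the log2 scale in vehicle.

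Of 40 other islet transcription factors, 25 passed the count filter. In vehicle 9 of these were lower and 1 was higher in the line labelled knockout, and in ivermectin 12 were lower and 1 was higher. Over all genes tested, 10.8% were called lower in vehicle and 13.9% in ivermectin, of 20.7% and 27.8% called in either direction. The list's medians were -0.26 and -0.33 on the log2 scale, beside -0.0007 and -0.0004 for all genes. Mnx1, a homeodomain factor of β-cells and motor neurons, fell from 22.5 to 9.06 CPM in vehicle (log2 difference -1.31, SE 0.248) and had -1.45 in ivermectin. Myt1 and St18, related zinc-finger factors, had -0.55 and -0.41 in vehicle, and -0.66 and -0.28 in ivermectin. Scrt1 (-0.71 and -0.87), Onecut2 (-0.46 and -0.57) and Mlxipl, the carbohydrate-response factor (-0.23 and -0.24), were also lower in both. Etv1 (-0.26) and Nfia (-0.87) were called in vehicle only, and Glis3, Meis2 (-0.80), Bhlha15 (-0.65), Rfx3 (-0.63) and Zfp148 (-0.54) in ivermectin only; the interaction called 0 of the 25 with edgeR, with 3 at an unadjusted p under 0.05, which 5.11% of all genes had. Glis3 had 6.497 to 13.8 CPM in wild-type ivermectin and 1.94 to 6.97 in labelled-knockout ivermectin, reaching down to the level of 3 counts in a library there (1.59 to 1.90 CPM), so its fold is not given. Gata6, an endoderm factor, was the gene that was higher, at 0.929 to 3.21 CPM in wild-type vehicle and 5.30 to 8.03 in labelled-knockout vehicle. In wild-type vehicle it was at or near that level (2.82 to 3.36 CPM), so it passed the filter through other groups and its fold is not given. Pax4, Neurog3 and 13 more of the 40 were too low to test.

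**Figure D3:**
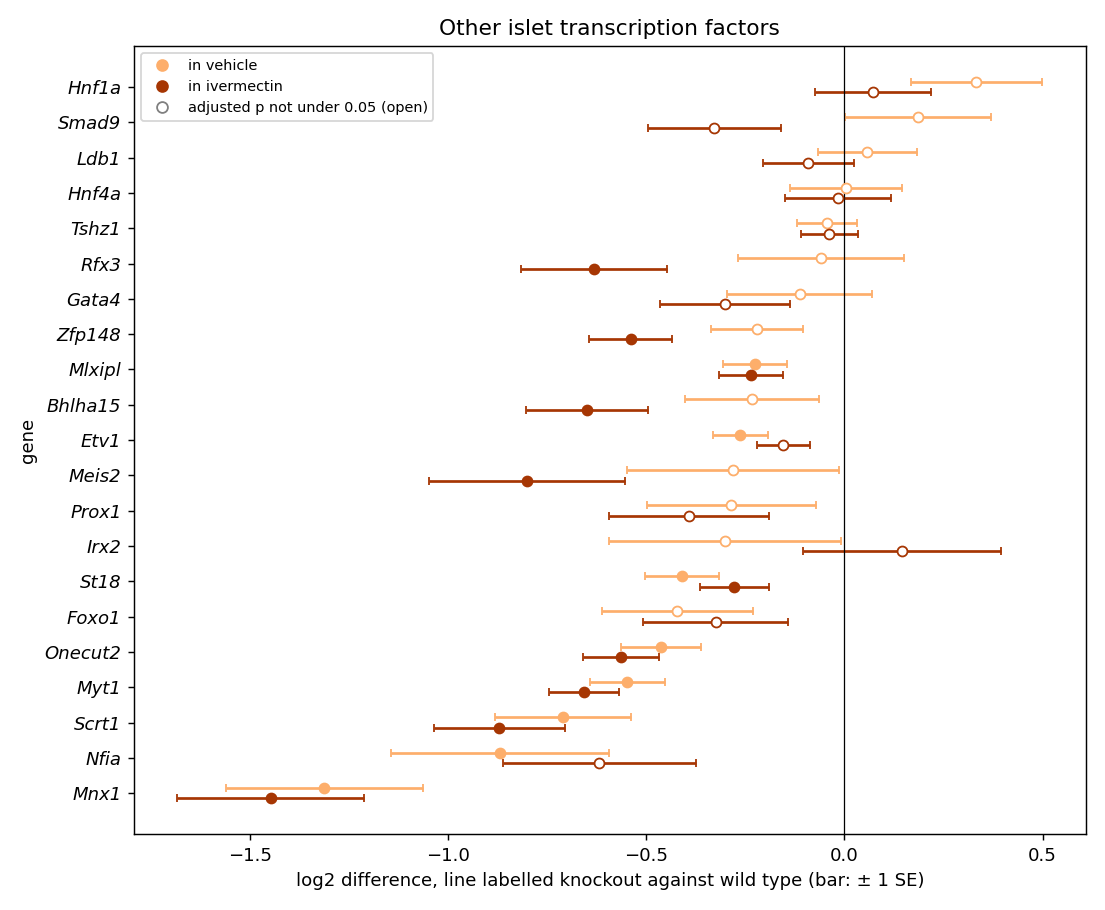
Log2 differences of 21 of the 25 other islet transcription factors that passed the count filter, without Gata6, Glis3 and Irx1, whose mean lay under the level of 6 counts in the smallest library of at least 1 group, a limit set after the data were seen (horizontal axis, line labelled knockout against wild type, bars ± 1 SE), in vehicle and in ivermectin; filled points have an adjusted p under 0.05. Mnx1 lies lowest at -1.31 and -1.45.

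Of 38 tested genes known as targets of the factors, 8 were higher and 11 lower in vehicle, and 7 were higher and 14 lower in ivermectin. Over all genes 20.7% were called in vehicle, 10.8% as lower, and 27.8% in ivermectin, 13.9% as lower. The medians of the targets were -0.06 and -0.08, beside -0.0007 and -0.0004 for all genes. The insulin genes were not called: Ins1 had log2 differences of -0.16 and -0.12 (edgeR adjusted p = 0.0704 and 0.183) and Ins2 had -0.04 and 0.03 (0.765 and 0.794). Iapp, which encodes the co-secreted peptide amylin, rose from 5494 to 7206 CPM in vehicle (log2 0.39), and Abcc8, a subunit of the ATP-sensitive potassium channel, rose from 631 to 823 CPM (0.38). Prlr, the prolactin receptor (0.68), Trpm5, a calcium-activated cation channel (0.58), Nnat (0.44), Sytl4 (0.33), Syt13 (0.20) and G6pc2 (0.16) were also higher in vehicle. In ivermectin the same genes except Syt13 were called higher.

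Lower targets in vehicle included the incretin receptor gene Gipr, which fell from 16.2 to 6.199 CPM (log2 difference -1.35). Chgb, a granule protein gene, fell from 1221 to 696 CPM (-0.81). Npy (-0.63), Dlk1 (-0.58), Rab3a (-0.57), Syt4 (-0.48), Ptprn2 (-0.30), Scg2 (-0.20), Pcsk1 (-0.18) and Ptprn (-0.14) were also lower. All 11 were lower in ivermectin too, with Glp1r (-0.28), Cacna1d (-0.64) and Robo2 (-0.32) in addition. Ivermectin itself called 0 of the 38 in either line with edgeR, where 0.601% of all genes passed in wild type and 0% in the line labelled knockout. At an unadjusted p under 0.05 there were 0 in wild type and 4 in the line labelled knockout, beside 5.20% and 7.58% of all genes.

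Another list held 21 genes that mature β-cells keep low, of which 11 passed the count filter. In vehicle 0 were higher in the line labelled knockout and 5 were lower: Ldha, a lactate dehydrogenase subunit (log2 difference -0.64), Oat (-0.35), Igfbp4 (-1.84), Mgst1 and Cat, catalase, beside 10.8% of all genes called lower. Mgst1 had 8.80 to 40.5 CPM in wild-type vehicle and 0 to 2.32 in labelled-knockout vehicle, at or near the level of 3 counts (1.49 to 1.72 CPM), so its fold is not given. In ivermectin Vim, an intermediate filament gene of mesenchymal cells, was higher, at 7.51 to 11.6 CPM against 2.19 to 5.498 in wild type, which reaches down to that level (1.52 to 2.20 CPM) and fixes no fold. Oat (-0.30) and Igfbp4 (-1.66) were lower in ivermectin, beside 27.8% of all genes called in either direction and 13.9% called lower. In wild type, Mgst1 and Cat also passed as lower with ivermectin, 2 of the 11, beside 0.601% of all genes called in either direction. Both passed the count filter through wild-type vehicle, where they were highest, so their calls are a description only. Mgst1 and Cat are abundant in liver, and both were highest in wild-type vehicle, as the hepatocyte markers were: Cat averaged 26.5 CPM there and 3.81 to 5.70 in the other groups. Neurog3, Sox9 and Aldh1a3, genes of progenitor or dedifferentiated cells, were too low to test.

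In human islets the orthologs were read in 1081 single cells of 6 donors, a table that the submitters rebuilt from another study's reads. Among them were 164 beta, 437 alpha, 59 delta, 74 gamma, 111 acinar and 135 ductal cells, each type with cells of all 6 donors. Counts were summed over the cells of a donor and type where there were at least 10. That held for 6 donors in beta and alpha cells, 3 in delta and gamma, 2 in acinar and 4 in ductal cells. CPM values rest on those donors only, and shares of cells with a count use all cells of a type. Cell types are the annotation deposited with that study, which was made from the expression of these cells, so the levels are a description with no test. INS, GCG, SST and PPY were highest in the types named for them, and of the other beta-cell markers ADCYAP1 was highest in beta cells while IAPP and DLK1 were highest in co-expressing and unclassified endocrine cells. Cells had a median of 486350 counts.

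PDX1, MAFA and NKX6-1 were highest in beta cells, 3 of the 10 factors, where 12.2% of 19307 human genes were. PDX1 averaged 258 CPM in beta cells (23.9 to 614 over 6 donors), 67.6 in ductal, 59.2 in delta, 36.3 in acinar, 24.6 in gamma and 0.570 in alpha cells. MAFA averaged 66.8 CPM in beta cells (11.5 to 161) and no more than 0.524 in any other of the 5 types. NKX6-1 averaged 92.8 CPM in beta cells (21.8 to 145) and 13.9 in alpha cells (6.11 to 21.6). For these 3, the beta-cell value was above the alpha-cell value in 6 of 6 donors and above the ductal value in 4 of 4. The donors themselves were far apart, and for PDX1 the beta cells of the lowest donor lay below the highest ductal and delta values.

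The share of cells with at least 1 count followed this order for MAFA, with 81.1% of beta cells (exact 95% interval 74.3% to 86.8%) against 3.20% of alpha cells (1.76% to 5.32%). PDX1 was read in 81.7% of beta, 78.4% of acinar, 76.3% of ductal, 71.2% of delta, 37.8% of gamma and 6.41% of alpha cells. NKX6-1 was read in 76.8% of beta cells and also in 47.1% of alpha and 42.2% of ductal cells, at much lower CPM. The intervals cover counting error only, and depth differed between cells. A beta cell had counts of a median of 8 of the 10 factors and 48 of 164 had all 10, against a median of 6 and 2 of 437 in alpha cells, 7 in delta, 6 in gamma, 3 in ductal and 2 in acinar cells.

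The other 7 were spread over the endocrine types. NEUROD1 averaged 298 CPM in beta, 300 in alpha, 248 in delta and 398 in gamma cells, and 0.400 in acinar cells. PAX6 was highest in gamma cells, 689 CPM (431 to 874), before beta cells at 350 (241 to 608) and alpha cells at 310. ISL1 was highest in delta cells at 265 CPM (149 to 383) and lower in beta cells, 97.1 (65.7 to 127), than in alpha cells, 153 (79.9 to 203). Beta cells exceeded alpha cells for ISL1 in 2 of 6 donors and delta cells in 0 of 3.

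RFX6 was highest in alpha cells at 151 CPM (51.8 to 341), against 52.5 in beta cells (22.4 to 103). NKX2-2 averaged 51.1 CPM in gamma, 34.2 in beta, 28.2 in alpha and 12.9 in delta cells. INSM1 lay between 36.9 and 43.4 CPM in all 4 endocrine types, whose donor ranges overlapped, and the type at the top changed with the way the cells were summed. FOXA2 was the most even of the 10, from 46.4 CPM in gamma cells to 17.8 in ductal and 18.8 in acinar cells. The 4 hormone genes INS, GCG, SST and PPY took 14.6% to 24.5% of the counts of the endocrine types and 0.0121% in acinar cells, which bears on every CPM value.

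**Figure D4:**
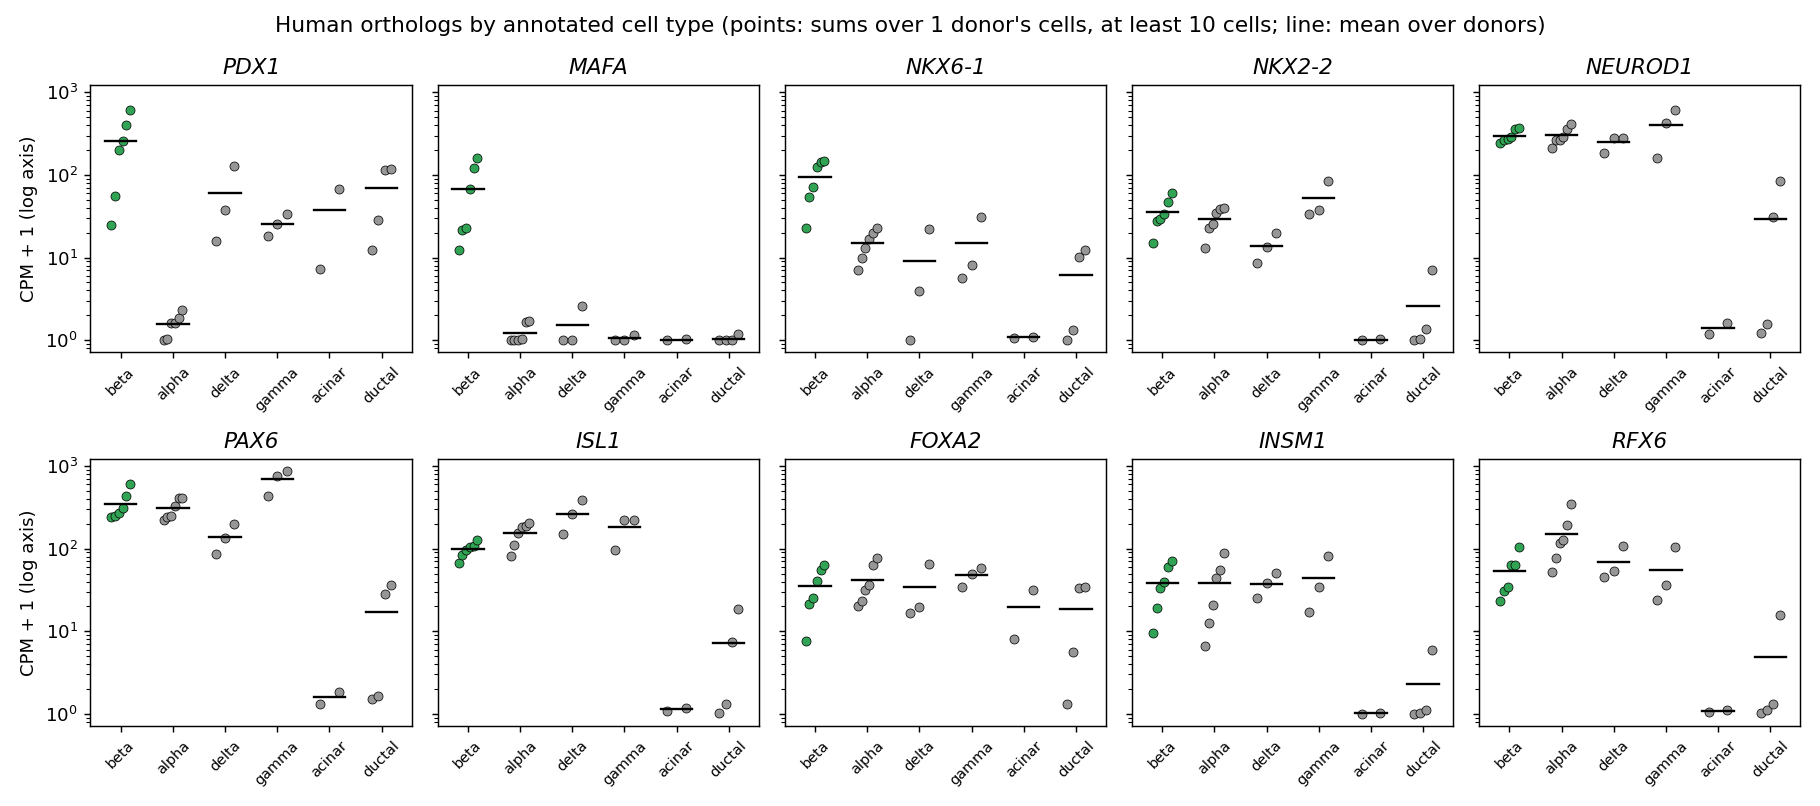
Level of each human ortholog (vertical axis, CPM + 1, log scale) in 6 annotated cell types; each point is the sum over 1 donor's cells of that type and the line is the mean over donors. Beta cells, in green, stand above alpha cells for PDX1, MAFA and NKX6-1, and the endocrine types overlap for INSM1 and NEUROD1.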

How the data were processed

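Gene counts were deposited by the authors as a table of whole-number counts, which equalled the expected counts of RSEM rounded down in 100% of values. The authors also deposited expected counts and TPM per library, per the file headers. STAR 2.7.2b, RSEM 1.3.3, DESeq2 1.32.0 and mm10 are named in the submitters' processing notes. The human single-cell counts were made by the authors with RSEM on GRCh38.p12, per the series' design text; the table deposited under the name of diabetic donors was identical and was not used.

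Genes were kept with filterByExpr (minimum count 10, minimum total 15). The test was edgeR's quasi-likelihood F test (edgeR 4.0.16, R 4.3.3, TMM factors, 1 mean per group over 16 libraries, Benjamini-Hochberg over 10820 genes, threshold 0.05), after a test on simulated data. CPM values carry TMM factors except those of cell-type marker lists. Named genes are the 10 factors, list members past the threshold between the lines, P2ry1, Ins1, Ins2 and Alb, and the 3 genes most like each called factor (log2 CPM, prior count 2). The members and lists were chosen with earlier results of these data known. Alternatives were DESeq2 1.42.0, RLE factors, no filter, a mean of at least 50 counts, expected counts, a replicate block, a fit of only the libraries compared, thinning, Alb as a covariate and leaving out each library. Averages over treatments or lines, and human totals without hormone genes, were added after seeing the data. Replicate pairs differed by 1.16 to 7.36 in chi-squared per degree of freedom, so no libraries were merged. Some genes of the lists enter the counts and medians but are not reported here by name.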

Additional observations from a re-analysis of the deposited data

Results flagged for a closer look

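In 8 of 70 groups of 4 to 10 values, 1 value stood far from the rest by Dixon's criterion, where chance gives 3.5. In labelled-knockout vehicle, Nkx2-2 was at 113.3 CPM in replicate 1 against 91.8 to 93.3 in the others, Pax6 was at 367.2 in replicate 3 against 381.9 to 384.7, and Rfx6 was at 72.57 in replicate 4 against 60.4 to 62.1. In labelled-knockout ivermectin, Rfx6 was at 46.39 CPM in replicate 3 against 67.0 to 70.5.

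In human ductal cells 1 of 4 donors stood apart for MAFA (0.1781 CPM, with 0 in the others), NKX2-2 (6.116 against at most 0.356), INSM1 (4.987 against at most 0.108) and RFX6 (14.96 against at most 0.333). For MAFA, INSM1 and RFX6 this was the donor whose ductal cells also had the most GCG counts; for NKX2-2 it was not. The part of these hormone transcripts was not tested.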

How the results depend on the processing

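Factors with the fewest counts, Foxa2 and Rfx6, had the widest intervals; values near 0 changed sign with the processing, and the cause was not tested. In the line labelled knockout against wild type in vehicle, 2 factors passed, and 4 passed with a mean of at least 50 counts (Pdx1, Isl1, Nkx6-1 and Insm1), 4 with only the libraries compared (Pdx1, Isl1, Nkx6-1 and Neurod1), 1 after thinning (Isl1), 0 with Alb as a covariate and 6 with the mean of both treatments. Over all genes tested in each fit, 20.7% passed in vehicle, and 26.5%, 21.5%, 12.2%, 3.66% and 39.9% under those 5 alternatives. In ivermectin 4 passed, and DESeq2 called 2 (Pdx1 and Isl1), with 27.8% and 15.5% of all genes. With 1 library left out the counts were 2 to 3 in vehicle and 2 to 5 in ivermectin, beside 16.7% to 21.5% and 22.3% to 28.3% of all genes; the 2 in ivermectin came without wild-type ivermectin replicate 2 and without labelled-knockout ivermectin replicate 3. In vehicle Nkx6-1 passed without labelled-knockout vehicle replicate 1 (edgeR adjusted p = 0.0463) and Insm1 without replicate 2 (edgeR adjusted p = 0.0283). Counts of 0 factors for ivermectin and for the interaction stayed at 0 in every alternative run, and 3 human factors were highest in beta cells in every alternative run. The human alternative that takes cells of any quality was not run because all 1081 cells were marked as of good quality. Over all genes, ivermectin in wild type called 65, and 140 with no filter, 7 with a mean of at least 50 counts, 39 after thinning and 1 with Alb as a covariate. In the line labelled knockout it called 0, and 23 with no filter. The interaction called 24, and 82 with no filter, 4 with a mean of at least 50 counts, 47 with the replicate block, 11 after thinning and 0 with Alb as a covariate. With hormone genes left out of the totals, NEUROD1 in beta cells had 353 CPM.

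With the replicate number as a block, 2 factors passed in vehicle (21.0% of all genes), 4 in ivermectin (28.1%) and 0 in the other comparisons, so the block changed no call of a factor. The labels do not say what a number shares, same-numbered libraries had correlations of deviations from -0.193 to 0.310, with 6 of 24 over 0.1, and 6 of 16 libraries correlated best with a library of their own number, so the numbers were not taken to pair the samples.

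Signs changed in these log2 values. In the line labelled knockout against wild type in vehicle, Foxa2 had 0.00681 with no filter, 0.040 after thinning and 0.024 with Alb as a covariate. For ivermectin in wild type, thinning gave 0.050 for Nkx6-1, 0.018 for Pax6 and 0.00662 for Isl1. There, Alb as a covariate gave 0.017 for Mafa, -0.166 for Neurod1 and 0.00879 for Insm1, and the mean of both lines gave 0.010 for Pax6 and 0.00454 for Isl1. For ivermectin in the line labelled knockout, thinning gave 0.033 for Neurod1, -0.0131 for Isl1 and 0.122 for Rfx6. There, Alb as a covariate gave 0.029 for Neurod1, and the mean of both lines gave 0.00258 for Neurod1 and 0.069 for Foxa2. For the interaction, thinning gave 0.025 for Neurod1, -0.020 for Isl1 and -0.081 for Insm1, and Alb as a covariate gave 0.045 for Nkx6-1, 0.017 for Nkx2-2, 0.195 for Neurod1 and -0.029 for Insm1.

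Leaving out 1 library at a time changed further signs. In the line labelled knockout against wild type, Foxa2 ranged from -0.147 to 0.0863 in vehicle, and Mafa from -0.0276 to 0.0769 and Pax6 from -0.0472 to 0.0153 in ivermectin. For ivermectin in wild type the ranges were -0.0630 to 0.000403 for Isl1, -0.0629 to 0.0570 for Neurod1, -0.0771 to 0.0206 for Nkx2-2, -0.116 to 0.00397 for Nkx6-1 and -0.0544 to 0.00619 for Pax6. For ivermectin in the line labelled knockout they were -0.0975 to 0.0227 for Foxa2, -0.0415 to 0.0298 for Insm1, -0.0230 to 0.0933 for Isl1, -0.0985 to 0.00481 for Mafa, -0.0693 to 0.0293 for Neurod1 and -0.0595 to 0.105 for Rfx6. For the interaction they were -0.0101 to 0.0608 for Insm1, -0.0539 to 0.0483 for Mafa, -0.0875 to 0.0462 for Neurod1, -0.146 to 0.00377 for Nkx2-2, -0.0643 to 0.0557 for Nkx6-1 and -0.0688 to 0.0224 for Pdx1.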

Other observations

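In the human cells P2RY1, the ortholog of the gene that the mouse line is labelled for, averaged 27.2 CPM in beta cells (9.42 to 41.5 over 6 donors) and 0.0252 in alpha cells, and was read in 39.0% of beta and 1.37% of alpha cells. Delta cells averaged 42.0 CPM over 3 donors, from 3.15 to 102.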
